A study of Mus musculus with 4 samples.

Results

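The miR-181 family is a group of 4 microRNAs (miRNAs, short RNAs that silence messenger RNAs). The members mmu-miR-181a, mmu-miR-181b, mmu-miR-181c and mmu-miR-181d were taken by probe name, with opposite arms left out, and are written below without the prefix for mouse. They are 4 of the 577 mouse miRNAs named in the table. The assay covered them with 3 probes of its 566 for mouse miRNAs, because miR-181b and miR-181d were read by 1 joint probe and cannot be told apart. Levels were measured in 2 liver tumours and 2 normal livers of mice. Per the labels' protocols, female NF2fl/fl mice, in which both copies of the merlin gene Nf2 are floxed, received either AAV2/8-Cre, a viral vector that delivers Cre recombinase and removes the gene in hepatocytes, or PBS, and livers were inspected 50 weeks later. The labels mention 3 mice without saying how they divide, and they do not say whether normal tissue came from the PBS mice or whether each sample came from its own animal. The p-values therefore reflect the variation among these 4 samples, which may be technical.

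As background, a miRNA guides a repressor complex to messenger RNAs mainly through its seed, the bases next to its 5′ end, so that members with one seed can share targets. The miR-181 family is best known from lymphocytes, where miR-181a tunes T cell receptor sensitivity. In human liver cancer cells with progenitor features the family is raised and represses the differentiation factors CDX2 and GATA6 and the Wnt pathway inhibitor NLK, and in mouse liver TGF-beta signalling raises miR-181b, which targets the metalloproteinase inhibitor TIMP3.

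The mature sequences, from RefSeq on build GRCm38.p6, are shown because the members share their seed and differ by few bases, which bears on what each probe can read. They run 5′ to 3′, with the seed (bases 2 to 8) in capitals.

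miR-181a-5p: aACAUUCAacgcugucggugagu

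miR-181b-5p: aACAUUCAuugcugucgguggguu

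miR-181c-5p: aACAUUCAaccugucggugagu

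miR-181d-5p: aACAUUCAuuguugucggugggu

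All 4 carry the seed ACAUUCA, and among 1679 mature mouse miRNA names in the RefSeq table no others than these 4 do. Counting positions from 1 at the 5′ end, miR-181b differs from miR-181a by A9U, C10U and A21G and is 1 base longer. MiR-181d differs from miR-181b by C12U and lacks its last base, and these 2 share the joint probe. MiR-181c is miR-181a without the G at position 11. How far each probe reads the other members was not given in the sources used here.

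In 3 genomic pairs, 6 hairpin genes encode the family. Mir181a-1 (chr1:137966455-137966541, plus strand) lies 97 bases before Mir181b-1 (chr1:137966639-137966718), and no other gene of the RefSeq table overlaps either. Mir181a-2 (chr2:38852735-38852810, plus strand) and Mir181b-2 (chr2:38853830-38853918) lie 1019 bases apart within the long noncoding RNA gene Nr6a1os on the same strand and within the protein-coding gene Nr6a1 on the opposite strand; exons were not given in the tables used. Mir181c (chr8:84178873-84178961, minus strand) and Mir181d (chr8:84178716-84178787) lie 85 bases apart and overlap no other gene of the table. The miR-181a probe therefore sums the products of 2 genes, and the joint probe those of 3.

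The assay, NanoString's nCounter, counts single colour-coded probes bound to their targets. Deposited values were probe counts multiplied by 1 factor per sample, and dividing by it gave back the whole counts. Recovered miRNA counts totalled 239727 and 123818 in tumours 1 and 2, against 68260 and 62054 in normal livers 1 and 2, and the factors were 0.395 and 0.905 in the tumours and 2.09 and 2.30 in the normal livers. The 6 negative control probes averaged 7.5 and 7.67 counts in the tumours and 8.83 and 7.67 in the normal livers, so background was level in counts while its scaled value was higher in normal liver. A probe was called detected above the mean plus 2 SD of these controls. Hepatocyte miR-122, the check of the tissue, was at 12497 and 16387 scaled in the tumours and 24527 and 29102 in the normal livers. Sample number limits the precision. Poisson, binomial and Wilson intervals below cover counting error only, while limma intervals rest on the variation among these 4 samples.

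MiR-181a rose in the tumours and was the only member called as changed in the main limma fit of the deposited scaling. Some alternative fits of that scaling, given below, called miR-181c or the joint probe lower. The deposited scaled values of miR-181a were 314 and 320 in tumours 1 and 2, against 102 and 96.4 in normal livers 1 and 2. Both tumours lay above both normal livers, and the lower tumour stood 3.07-fold above the higher normal liver. The means were 317 ± 4.48 in tumours and 99.3 ± 4.07 in normal livers (SD, n = 2 each). Limma on log2(value + 1) gave a difference, tumour minus normal, of 1.67 (SE 0.25, 95% interval 1.07 to 2.27), or 3.17-fold, with an adjusted p of 0.00339.

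The recovered counts behind these values were 795 (exact 95% Poisson interval 741 to 852) and 354 (318 to 393) in the tumours. In the normal livers they were 49 (36.3 to 64.8) and 42 (30.3 to 56.8). Each exceeded its detection threshold, which was 17.6 and 14.9 counts in the tumours and 18.3 and 11.2 in the normal livers. The tumour counts were 106 and 46.2 times the mean negative control, against 5.55 and 5.48 times in the normal livers, so background made up a larger part of the normal values.

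MiR-181c was detected in all 4 samples, with tumours that disagreed with each other. Its scaled values were 34.8 and 15.4 in tumours 1 and 2, against 47.97 and 55.1 in normal livers 1 and 2. Both tumours lay below both normal livers, with tumour 1 at 2.26 times tumour 2. The means were 25.1 ± 13.7 in tumours and 51.5 ± 5.05 in normal livers (SD, n = 2 each).

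The difference for miR-181c was -1.11 on the log2 scale (SE 0.40, 95% interval -2.09 to -0.14) and did not pass the test (limma adjusted p = 0.0551). The recovered counts were 88 (70.6 to 108) and 17 (9.90 to 27.2) in the tumours and 23 (14.6 to 34.5) and 24 (15.4 to 35.7) in the normal livers. Before scaling, tumour 1 was thus the highest sample, and the intervals of tumour 2 and both normal livers overlapped. Tumour 2 lay 1.14 times above its threshold and normal liver 1 lay 1.25 times above its own, so these values stand close to background. Over all 4 samples limma called miR-181c lower with a pseudocount of 10 (-0.87, adjusted p = 0.0343). It also did so with the replicate number fitted as a block (-1.11, adjusted p = 0.00902). The difference was -1.68 without liver tumour replicate 1 and -0.55 without liver tumour replicate 2. Scaled to the positive controls, the difference was -0.12 (limma adjusted p = 0.9), and edgeR on recovered counts gave -0.10 (adjusted p = 0.878).

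The joint probe for miR-181b and miR-181d was detected in no sample. Its recovered counts were 15 and 8 in tumours 1 and 2, against 15 and 8 in normal livers 1 and 2. The groups had the same pair of counts, all under the thresholds. Scaling turned them into 5.93 and 7.24 in the tumours and 31.3 and 18.4 in the normal livers, which lie apart only through the factors. The probe had a mean log2 value of 3.78 against the 3.93 required for testing, and was not tested. Since both groups were at background, no fold is given, and any scaled difference of this probe compares background times the factors.

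**Figure D1:**
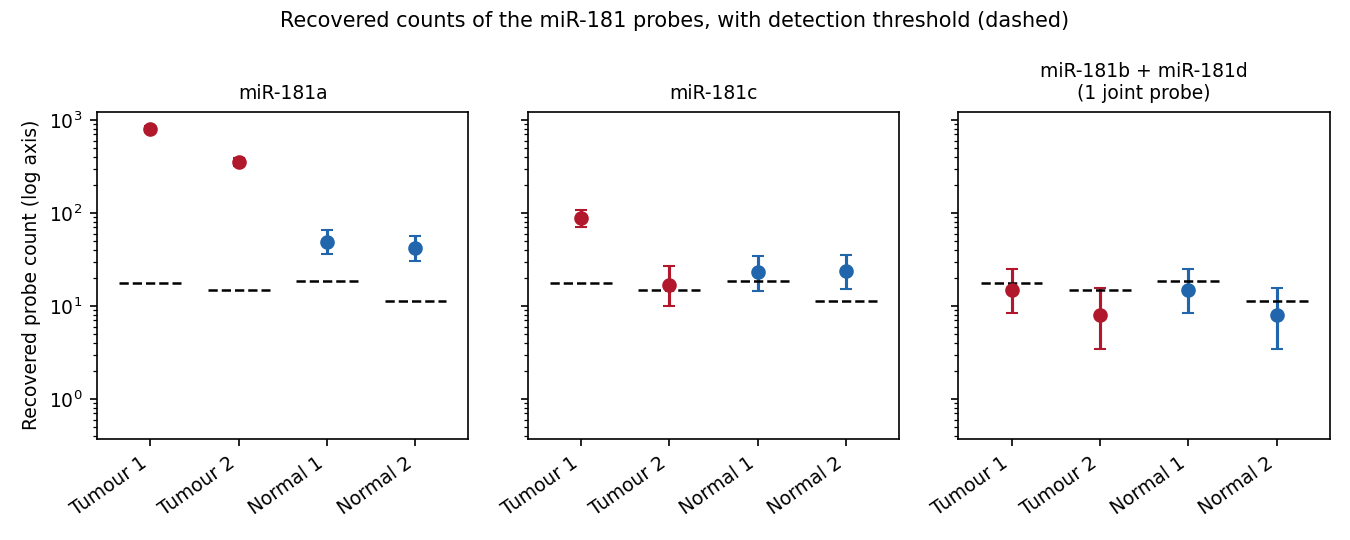
Recovered probe counts (vertical log axis) of the 3 miR-181 probes in each tumour (red) and normal liver (blue), with exact 95% Poisson intervals as bars and each sample's detection threshold as a dashed line. MiR-181a counts of 795 and 354 in the tumours stand far above the normal livers at 49 and 42, while the joint probe stays under the threshold in all 4 samples.

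**Figure D2:**
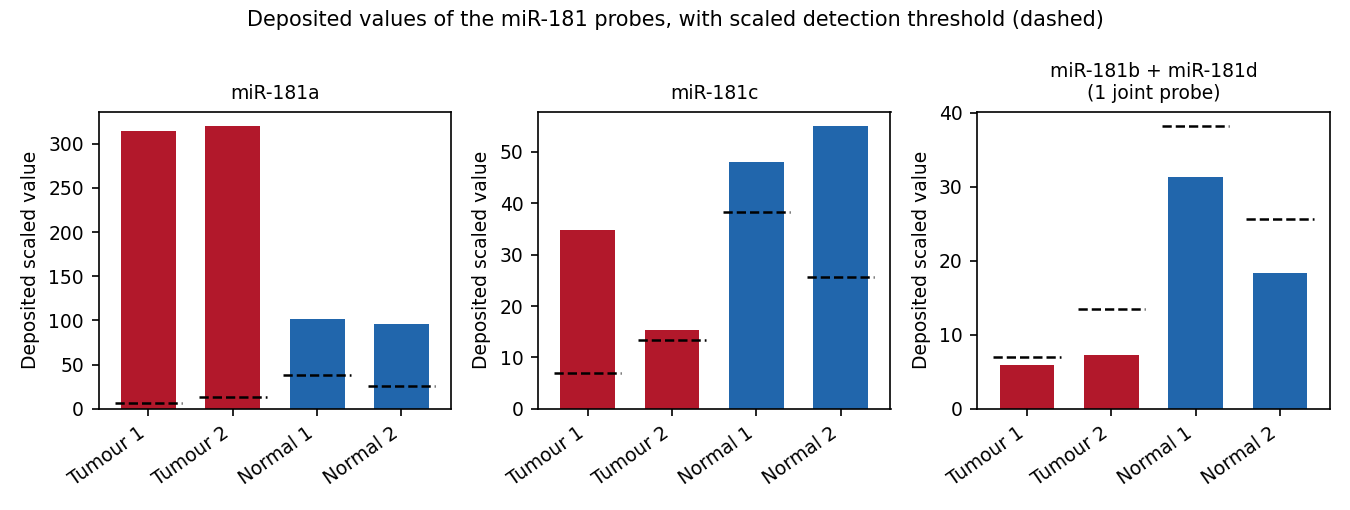
Deposited scaled values of the same probes as bars from 0, 1 bar per sample, with the detection threshold times the sample's factor as a dashed line; each panel has its own vertical axis. The thresholds are higher in the normal livers, and the blue bars of the joint probe lie under them.

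In all, 276 miRNAs passed the filter on low values and were tested, 2 of the 3 family probes among them. Of these 2, limma called 1 higher and 0 lower; miR-181c had an unadjusted p of 0.0312 in limma and edgeR called it in neither direction. Over all miRNAs tested, 7.97% were called higher and 46.7% lower, and the median log2 difference was -0.90. MiR-181a held rank 7 from the top of the 276 differences and miR-181c held rank 164. These shares and this median include miRNAs near background, whose scaled value was higher in normal liver, and 136 miRNAs were detected in all 4 samples. With background subtracted limma called 8 higher and 0 lower, the median was -0.43 and miR-181a held rank 15. MiR-181a held rank 11 with quantile normalization and rank 7 under the other scalings.

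**Figure D3:**
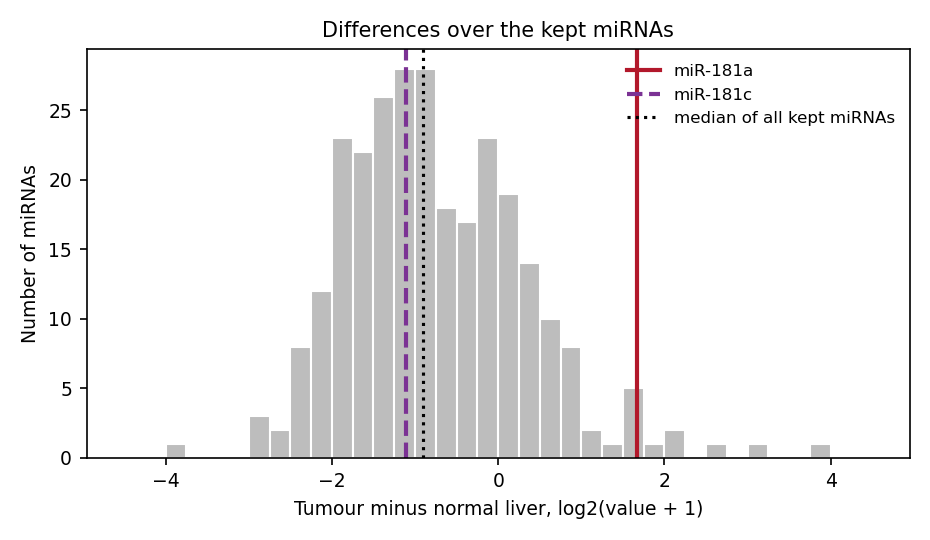
Number of miRNAs (vertical axis) by log2 difference, tumour minus normal liver (horizontal axis), over the 276 tested. MiR-181a (solid line, 1.67) lies in the upper tail, and miR-181c (dashed, -1.11) lies near the median of all (dotted, -0.90).

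The rise of miR-181a was larger under each of the 4 other scalings. Its log2 difference was 2.68 when scaled to the positive controls, 2.48 with medians made equal, 2.13 with totals made equal and 1.93 with quantile normalization. EdgeR on recovered counts gave 2.53 (adjusted p = 3.3e-05), where 25.7% of miRNAs were called higher. Under these alternatives the median difference over all tested was -0.45 to 0.092, above that of the deposited scaling, though quantile normalization called 19 miRNAs higher against 22 as deposited. Subtracting the mean negative control count raised the difference to 1.93 but ended the call (limma adjusted p = 0.0588), in a fit that called 8 miRNAs higher in all.

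**Figure D4:**
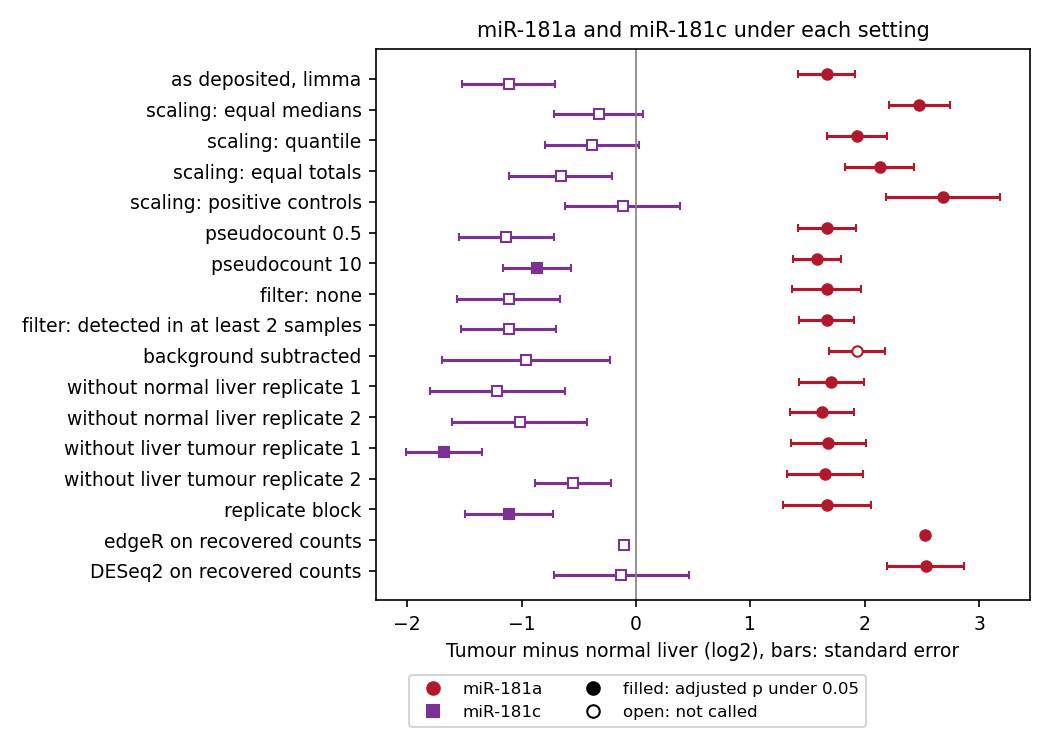
Log2 difference, tumour minus normal liver, of miR-181a (circles) and miR-181c (squares) under each setting (rows), with standard errors as bars where the tool gives one and filled symbols where the adjusted p was under 0.05. MiR-181a spans 1.58 to 2.68 and miR-181c spans -1.68 to -0.10.

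Ratios of 2 probes within a sample do not depend on the sample's factor. There were 9.03 counts of miR-181a per count of miR-181c in tumour 1 (exact 95% binomial interval 7.24 to 11.4) and 20.8 (12.8 to 36.2) in tumour 2. In normal liver 1 the ratio was 2.13 (1.27 to 3.66) and in normal liver 2 it was 1.75 (1.04 to 3.02). Both tumours were above both normal livers, and the intervals of the groups did not overlap. The ratio was 7.1-fold higher in tumours, a log2 difference of 2.83 (exact permutation p = 0.333, two-sided, the smallest that 2 against 2 samples allow). This ratio was chosen after its values were seen.

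The ratio set out earlier, miR-181a over the joint probe, was 53.0 and 44.3 in the tumours, against 3.27 and 5.25 in the normal livers (log2 difference 3.55, exact permutation p = 0.333, two-sided). Its lower part is background in every sample, so it restates the counts of miR-181a against background.

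Summed over the 3 probes, the family took 375 (Wilson 95% interval 351 to 400) and 306 (277 to 338) of every 100000 miRNA counts in tumours 1 and 2. In the normal livers it took 127 (103 to 157) and 119 (95 to 150). MiR-181a made up 88.5% and 93.4% of the family's counts in the tumours, against 56.3% and 56.8% in the normal livers. With each sample's mean negative control subtracted, these shares were 89.9% and 97.3% in the tumours and 66.4% and 67.3% in the normal livers. Probes may differ in efficiency, so a share describes counts and not molecules. By share of all miRNA counts, miR-181c had 36.7 and 13.7 per 100000 in the tumours and 33.7 and 38.7 in the normal livers, which puts tumour 1 between the normal livers and tumour 2 below them.

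Among the 136 miRNAs detected in all 4 samples, the profiles nearest to that of miR-181a were compared by Euclidean distance over the 4 samples, on log2(value + 1) centred on each miRNA's mean. The nearest of the 135 others was miR-125a-5p at a distance of 0.19, with scaled values of 710 and 825 in the tumours and 223 and 214 in the normal livers. Let-7i followed at 0.21, with 1052 and 916 in the tumours and 323 and 338 in the normal livers. MiR-96, of the miR-183 cluster, was at 0.37, miR-125b-5p at 0.45 and the stellate cell miRNA miR-199a-3p at 0.64. The median distance was 2.10, and miR-181c was at 2.90, in place 108. None of the 5 nearest carries the miR-181 seed, which follows from that place, since miR-181c was the only other family member compared. MiR-125a-5p and miR-125b-5p share the seed CCCUGAG with each other. With 4 samples in 2 groups, miRNAs with a like difference between the groups lie near each other in this measure.

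**Figure D5:**
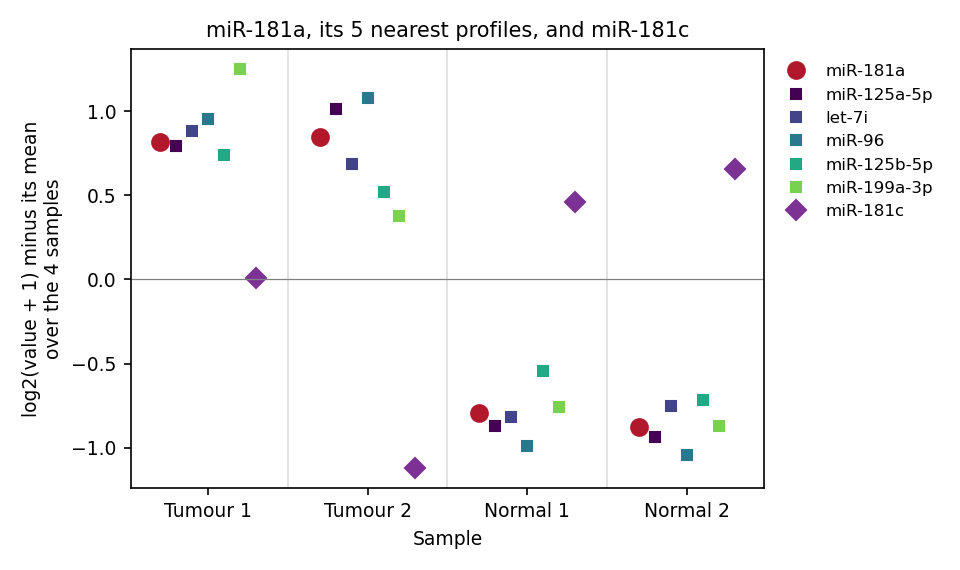
Centred log2(value + 1) (vertical axis) in each of the 4 samples (horizontal axis) for miR-181a (circles), its 5 nearest profiles (squares) and miR-181c (diamonds). MiR-181a and its neighbours are above their mean in both tumours and below it in both normal livers, with miR-181c the other way round in tumour 2 and both normal livers.

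Whole tissue was measured, so more cells with miR-181a and more miR-181a per cell cannot be told apart. Because miR-181a is abundant in lymphocytes, 8 leukocyte miRNAs were set beside it. In the deposited scaling limma called 0 of 8 higher (0 at an unadjusted p under 0.05) and 2 lower. Over all tested it called 7.97% higher and 46.7% lower. The 8 had a median of -0.07 against -0.90 over all tested. The median of the 8 turned to 0.34 without liver tumour replicate 2 and was -0.47 without liver tumour replicate 1. That median turned to 0.95 when scaled to the positive controls, where limma called 3 of the 8 higher and 0 lower (of all miRNAs tested, 15.9% higher and 3.62% lower), and to 0.83 in edgeR, which called 4 higher and 1 lower (of all, 25.7% higher and 14.1% lower). Their summed scaled level was 1114 to 1406 in the tumours and 1412 to 1752 in the normal livers. MiR-142-5p had 16.99 and 29.9 in the tumours, against 95.9 and 131 in the normal livers (log2 difference -2.26), and miR-155 of activated leukocytes had 203 and 300, against 586 and 801 (-1.47); both fell (limma adjusted p = 0.00339 and 0.00964), and limma called neither without normal liver replicate 2 or when scaled to the positive controls. The other 6 were not called: the log2 difference was 0.64 for miR-146a, 0.61 for miR-342-3p, 0.59 for the myeloid miR-223, 0.08 for miR-142-3p of the same hairpin as miR-142-5p, -0.22 for the lymphocyte miR-150 and -0.91 for miR-146b (limma adjusted p = 0.12 to 0.867).

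Lists for other cell types differed in direction in the deposited scaling, where limma called 7.97% of all miRNAs tested higher and 46.7% lower. Of 5 biliary and progenitor epithelial miRNAs (the miR-200 family), 4 were tested, of which 3 rose and 1 was called lower, with a median of 2.82. Their summed level was 1261 to 1301 in the tumours and 206 to 211 in the normal livers; miR-200c, the member called lower, and miR-141 were each detected in 1 sample. Of the 4 fits that left out 1 sample, limma called miR-200c lower in that without liver tumour replicate 1 and not in the others. Of 6 mesenchymal and stellate miRNAs 3 rose and 0 fell (median 0.70), with sums of 4399 to 5859 in the tumours and 2209 to 2547 in the normal livers. The 3 that rose were both arms of miR-199a and miR-125b-5p. The others, not called, had log2 differences of -0.08 to 0.14. MiR-125b-5p, at 3431 and 2943 in the tumours and 1406 and 1251 in the normal livers, made up the larger part of each sum. The median of the 6 was 0.85 without normal liver replicate 1 and 0.64 without normal liver replicate 2. Those fits rest on 1 normal liver, so these medians do not show that the calls hold. With background subtracted limma called 0 of the 6 higher, in a fit that called 8 of 276 higher. EdgeR over all samples called 5 of the 6 higher, where 25.7% of all miRNAs were called higher. The part of the biliary and mesenchymal miRNAs' cells in the rise of miR-181a was not tested. All 9 hepatocyte miRNAs were called lower in the deposited scaling (median -1.17), where 46.7% of all tested were called lower and the overall median was -0.90. The count was 1 of 9 when scaled to the positive controls (3.62% of all lower). In edgeR it was 2 of 9 (14.1% of all lower). With background subtracted it was 0 of 9, in a fit that called 0 lower over all. The hepatocyte median was -1.22 without normal liver replicate 1 and -1.18 without normal liver replicate 2. Those fits rest on 1 normal liver, so these medians do not show that the calls hold. The hepatocyte sums were 15678 to 19965 in the tumours and 33303 to 37256 in the normal livers. Of 2 endothelial miRNAs limma called 1 lower, close to the 46.7% over all (median -0.59, turning to 0.44 when scaled to the positive controls), and 0 without any 1 of the 4 samples. Of 3 erythroid miRNAs limma called 0 (0 at an unadjusted p under 0.05, median 0.47, turning to -0.08 without normal liver replicate 2). EdgeR called 3 of 3 higher (25.7% of all), and DESeq2 on the same recovered counts called 1 of 3 higher (53 of 276 over all).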

How the data were processed

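For 2 liver tumours and 2 normal livers, grouped by their titles, miRNA levels were compared. Per the labels' protocols, total RNA was extracted with TRIzol and assayed with nCounter miRNA Expression Assays. The deposited signal values are probe counts that the authors multiplied by 1 factor per sample; what set the factor is not given in the sources used here. Counts were recovered by dividing by that factor (100% of values whole in each sample, within 0.1 count); control probes were unscaled. Replicates were counted separately. They differed beyond sampling noise (chi-square 34.1 per degree of freedom for the tumours, 3.24 for the normal livers), which does not show that they came from separate animals. A miRNA was tested if its log2(value + 1) averaged over 3.93, set by the scaled means of the 6 negative controls (their average plus 2 SD). The test was limma 3.58.1 (two-sided, Benjamini-Hochberg over 276 miRNAs, threshold 0.05). It was also run on simulated counts that lacked the level background seen here, so that run does not bear on calls near background. Alternatives were other scalings, pseudocounts of 0.5 and 10 in place of 1, other filters, background subtraction, each sample left out, a replicate block, edgeR 4.0.16 and DESeq2 1.42.0 on recovered counts. The design listed miR-181b and miR-181d separately; the file joins them. All 4 members are named, with the 5 nearest profiles and up to 3 miRNAs of a cell type list; the leukocyte list is named in full, a choice made after its values were seen. Members and lists were chosen with earlier results of these data known.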

Additional observations from a re-analysis of the deposited data

How the results depend on the processing

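MiR-181a kept its direction under all 16 alternatives (1.58 to 2.68 on the log2 scale) and its call under 15; with background subtracted it was 1.93 without a call. Leaving out each sample in turn gave 1.62 to 1.71. MiR-181c stayed negative under the same 16 and was called lower under 3, namely with a pseudocount of 10 (-0.87), with the replicate block (-1.11) and without liver tumour replicate 1; leaving out samples gave -1.68 to -0.55. The joint probe of miR-181b and miR-181d, at background throughout, had an untested scaled difference of -1.73. It was -0.79 when scaled to the positive controls, -0.98 with equal medians, -0.31 with quantile normalization, -1.30 with equal totals, -1.05 with a pseudocount of 10 and -1.12 with background subtracted, and limma called -1.73 lower without a filter. Its value was -2.09 to -1.36 with samples left out. EdgeR, DESeq2 and the replicate block were not run on it, since it was not among the miRNAs tested.

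Counts of miRNAs called higher and lower were 22 and 129 as deposited. They were 59 and 50 with equal medians, 19 and 13 with quantile normalization, 44 and 10 when scaled to the positive controls, 34 and 74 with equal totals, 16 and 276 without a filter, 71 and 39 in edgeR and 53 and 12 in DESeq2. With background subtracted limma called 8 higher and 0 lower (86 in both directions had an unadjusted p under 0.05). The edgeR fit that called 39 lower had no background subtracted. Leaving out samples gave 7 to 18 higher and 47 to 127 lower. The causes of these changes were not tested. The replicate number, as a block, gave 19 higher and 143 lower. Same-numbered samples deviated together with a correlation of 0.042 over 276 miRNAs. With 2 samples per group, this value cannot decide whether same-numbered samples share more than a number. For the ratio of miR-181a to the joint probe, the log2 difference, tumour minus normal, was 2.63 to 3.89 over 7 alternatives. For the ratio of miR-181a to miR-181c that log2 difference was 2.23 to 3.43, also over 7. Counts of 17 to 24 limit miR-181c in 3 of the 4 samples.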
